A study of Tupaia belangeri with 6 samples.

Results

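The genes of iron transport and storage were examined in single nuclei of the hippocampus of tree shrews (Tupaia belangeri, TSs). The 9 genes were TF, TFRC, SLC11A2, FTH1, FTL, SLC40A1, CP, IREB2 and ACO1, each found by its symbol as 1 of the 83605 features of the deposited matrices. The libraries came from 3 control TSs, healthy and age-matched per the study's methods, and from 3 TSs with Alzheimer's-like pathology (ALP, titled AD in the labels), aged naturally and picked by their performance in a pipeline maze. One library was made per TS, so that each group held 3 libraries, and no drug, transgene or mutation was involved. GEO's labels do not give age or sex for single libraries. Per the paper's methods, both groups were chosen by their time in that maze, with longer times for ALP and shorter times for control TSs. The paper also reports more deposits of amyloid beta, more APP and more phosphorylated Tau in the hippocampus of ALP TSs. It further reports a smaller hippocampus by MRI and lower glucose uptake in the brain. The labels tie none of these findings to a single library, so that each ALP library stands for an animal that was slow in the maze.

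Iron travels in the blood and in the tissue fluid bound to transferrin (TF) and enters cells when transferrin binds its receptor (TFRC) and is taken into endosomes, from which the transporter SLC11A2 (DMT1) moves iron into the cytosol. Surplus iron is stored in ferritin, a shell of heavy (FTH1) and light (FTL) chains, and leaves cells through ferroportin (SLC40A1), with the ferroxidase ceruloplasmin (CP) oxidizing it on the way. IREB2 and ACO1 encode the iron regulatory proteins, which bind RNA elements in TFRC, ferritin and ferroportin messages when iron is scarce. In brain, oligodendrocytes are rich in iron, and endothelial cells form the barrier that it must cross.

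Of 37603 nucleus barcodes, 28233 passed the filters, 14387 from control and 13846 from ALP TSs. Median depth per library was between 1503 and 2188 UMIs (unique molecular identifiers, 1 per captured RNA molecule) per nucleus, and 2 libraries shared at most 0.465% of their barcodes. Control 2 had few nuclei (1614, of which 172 were Oligo-like), and 28.9% of the nuclei of Control 3 were in clusters that got no name. The noncoding feature LINC-FRMD8-1 took from 13.02% to 27.3% of the UMIs of a library. Clusters were named from marker genes, with the iron genes kept out of the clustering, and the named classes are written as X-like. These were 8137 Oligo-like nuclei (oligodendrocytes), 3229 Astro-like (astrocytes), 2852 Pyra-like (pyramidal neurons), 2713 OPC-like (oligodendrocyte progenitors), 2454 InN-like (inhibitory neurons), 2338 Gran-like (dentate granule neurons), 1619 Micro-like (microglia) and 499 Endo-like (endothelial cells). Smaller classes were Ependymal-like (163), Fibroblast-like (100) and Choroid plexus-like (18), and 4111 nuclei stayed unnamed. The order of the levels of a gene is given among the 8 larger classes. Levels are given as CPM, the UMIs of a gene per 1000000 UMIs summed over the nuclei of a class in a library. Endo-like nuclei also held markers of mural cells, which surround vessels, with RGS5 among their leading genes. These markers, 1 of 5 at 0, summed to 1682 to 1862 CPM in control and 1095 to 1841 CPM in ALP libraries. Mural cells were not set apart from endothelial cells in this class.

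UMIs were found for 7 of the 9 genes. TF had 12710 UMIs in the kept nuclei, CP 3138, IREB2 2768, ACO1 1668, SLC11A2 1349, TFRC 933 and SLC40A1 517. FTH1 (TSDBGID.3895) and FTL (TSDBGID.3637) were at 0 in every barcode, kept or not. Widely used genes such as GAPDH, EEF1A1, RPLP0, TMSB4X and PPIA were also listed at 0, so a 0 of FTH1 and FTL cannot be read as lack of the RNA. Taken as counts, 0 would allow up to 0.048 CPM over the kept nuclei. The annotation holds 93 further features named after the 9 genes, as copies, antisense transcripts or intergenic transcripts, 24 of them at 0. FTH1 had 16 copies with 24498 UMIs, and 1 of these, FTH1li4, held 23211. FTL had 2 copies, and FTLli2 held all 12533 UMIs. FTH1li4 and FTLli2 are described below beside the genes themselves. Whether their UMIs come from the ferritin genes or from the copies cannot be told apart, because near-identical sequences can share reads.

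**Figure D1:**
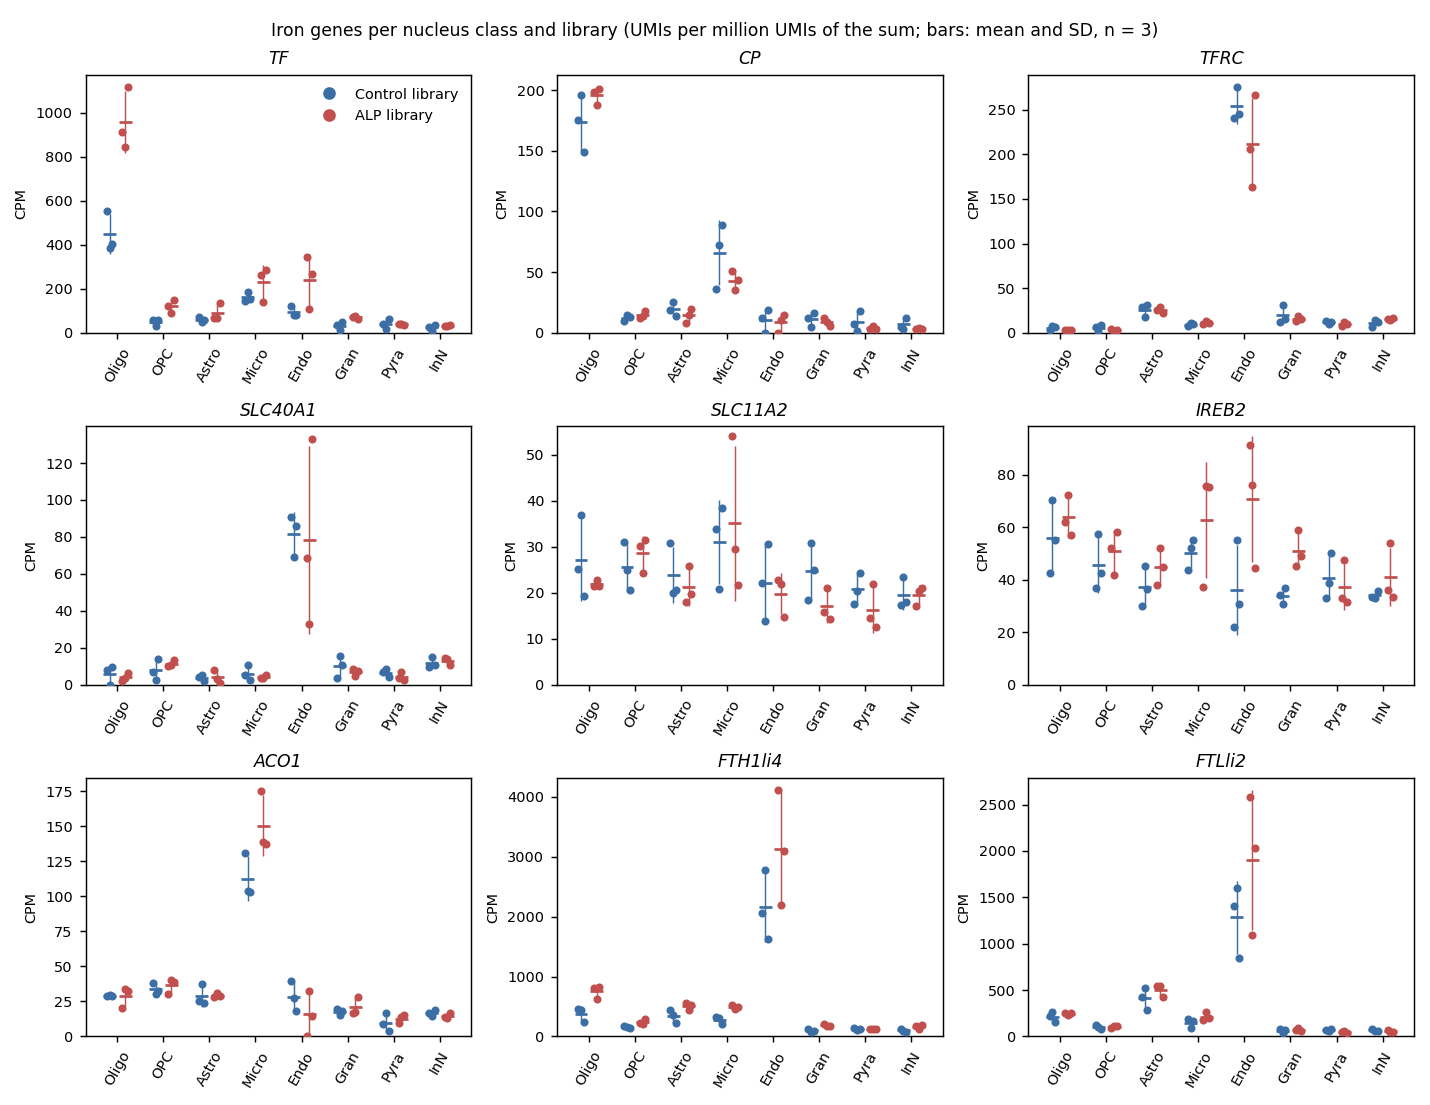
Level of the 7 genes with UMIs and of the ferritin copies FTH1li4 and FTLli2 in each class (x axis) in CPM (y axis, linear, from 0). Each point is a library (blue control, red ALP), and bars give the mean and SD of 3 libraries. TF and CP peak in Oligo-like nuclei, TFRC, SLC40A1 and the copies in Endo-like nuclei and ACO1 in Micro-like nuclei, while SLC11A2 and IREB2 differ little.

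TF, the carrier of iron in plasma and tissue fluid, was highest in Oligo-like nuclei among the 8 larger classes. Its level there was 702 ± 299 CPM (SD, n = 6 libraries), against 195 ± 64.5 CPM in Micro-like, 167 ± 110 in Endo-like and 84.3 ± 44.6 in OPC-like nuclei. Astro-like nuclei followed with 75.4 ± 30.6 CPM, and the neuronal classes were lowest, from 28.1 ± 9.57 CPM in InN-like to 50.8 ± 25.1 in Gran-like nuclei. Oligo-like nuclei were above Micro-like nuclei in 6 of 6 libraries, on average 3.46-fold. Of neighboring pairs in this order, those not on 1 side in every library were Micro-like and Endo-like (higher in 5 of 6 libraries), OPC-like and Astro-like (3 of 6), Astro-like and Gran-like (4 of 6), and Gran-like and Pyra-like (3 of 6).

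The low level of TF outside Oligo-like nuclei was set beside MOG, a myelin gene that marks oligodendrocytes, since RNA set free by broken cells can enter every droplet. For 1000 MOG UMIs, Oligo-like nuclei of the control libraries held 728 TF UMIs. The same ratio was 1032 in Micro-like, 1033 in Astro-like, 1163 in OPC-like, 1184 in Pyra-like, 1202 in Gran-like, 1447 in Endo-like and 1459 in InN-like nuclei. In ALP libraries it was 1047 in Oligo-like nuclei and from 1315 in Micro-like to 1944 in InN-like nuclei. With the libraries of a group summed, the ratio was above that of Oligo-like nuclei in each of the other 7 classes in both groups and was higher in ALP in all 8. Library by library, control and ALP overlapped in each of the 7 classes other than Oligo-like, and the part of free RNA in TF outside Oligo-like nuclei was not tested. Unthinned, TF was seen in 56.4% of Oligo-like nuclei (median 1331 UMIs) and in 10.6% of InN-like nuclei, which were deeper (median 4274 UMIs). Fibroblast-like nuclei held 47 TF UMIs beside 13 MOG UMIs over both groups, with a TF level of 217 ± 114 CPM (n = 6).

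**Figure D2:**
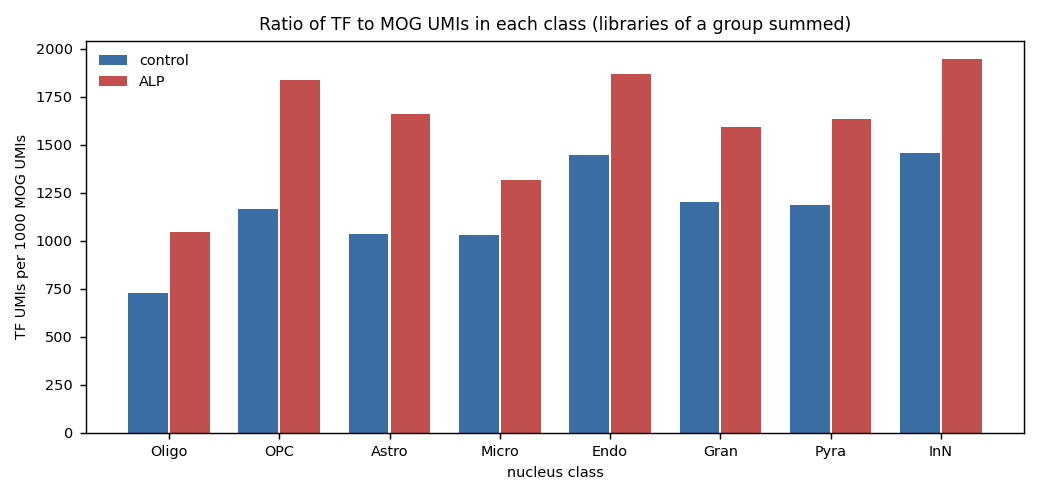
TF UMIs per 1000 MOG UMIs (y axis, linear, from 0) in the 8 larger classes (x axis), with the libraries of a group summed (blue control, red ALP), so that bars carry no error. Control bars range from 728 in Oligo-like to 1459 in InN-like nuclei and ALP bars from 1047 to 1944 in the same classes.

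CP, the ferroxidase, had its highest level among the 8 larger classes in Oligo-like nuclei, at 184 ± 19.8 CPM (n = 6). Micro-like nuclei followed with 54.4 ± 21.7 CPM, and no other of the 8 classes exceeded 16.7 CPM. The Oligo-like level was above the Micro-like level in 6 of 6 libraries, 3.53-fold on average. Over both groups, Micro-like nuclei held 319 CP UMIs per 1000 MOG UMIs, against 228 in Oligo-like nuclei. In the rest of the 8 classes this ratio ran from 143 in Endo-like to 309 in InN-like nuclei. The part of free RNA in CP outside Oligo-like nuclei was not tested. Ependymal-like nuclei, which line the ventricles, were higher still with 345 ± 84.7 CPM (n = 6), and their 118 CP UMIs stood beside 11 MOG UMIs, whereas Oligo-like nuclei held 228 CP UMIs per 1000 MOG UMIs. In the 18 Choroid plexus-like nuclei 34 CP UMIs were counted, too few nuclei for values per library.

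TFRC, the transferrin receptor, was highest in Endo-like nuclei among the 8 larger classes. There it reached 233 ± 41.8 CPM (n = 6), with 163 CPM in the lowest and 276 CPM in the highest library. Astro-like nuclei came next with 25.7 ± 5.19 CPM, and Gran-like nuclei with 17.6 ± 6.78 CPM. The lowest of these 8 were OPC-like nuclei, at 4.41 ± 2.40 CPM, and Oligo-like nuclei, at 4.55 ± 1.77 CPM. Endo-like exceeded Astro-like nuclei in 6 of 6 libraries, 8.78-fold on average. After thinning every nucleus to 1000 UMIs, 20.5% ± 1.21 of Endo-like nuclei of control libraries had a TFRC UMI, against 0.596% ± 0.355 of Oligo-like nuclei.

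SLC40A1, the iron exporter ferroportin, had the same leading class among the 8 as the receptor. Its level was 80.0 ± 33.1 CPM in Endo-like nuclei (n = 6, from 32.7 to 133 CPM, 71 UMIs), and 80.9 ± 44.8 CPM in Fibroblast-like nuclei on 16 UMIs. InN-like nuclei were next with 12.4 ± 2.27 CPM, and the other classes lay between 3.86 and 9.57 CPM. Endo-like exceeded InN-like nuclei in 6 of 6 libraries, 5.63-fold on average. Among InN-like clusters, cluster 11, led by CRHBP and SST, a marker of somatostatin interneurons, had the highest pooled level, 20.4 CPM, against 4.82 to 11.7 CPM in the other 3.

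ACO1, which encodes iron regulatory protein 1, was highest in Micro-like nuclei among the 8 larger classes. The level was 132 ± 26.8 CPM (n = 6), against 35.1 ± 4.70 CPM in OPC-like nuclei and 11.3 ± 4.75 CPM in Pyra-like nuclei, the lowest of them. Micro-like exceeded OPC-like nuclei in 6 of 6 libraries, 3.64-fold on average. The Micro-like nuclei formed 2 clusters. In cluster 7 with 1436 nuclei, led by PTPRC and IKZF1, ACO1 stood at a pooled 160 CPM, and in cluster 24 with 183 nuclei, led by CLEC6A and GPNMB, at 56.2 CPM on 37 UMIs. Cluster 24 had 9.84% marked doublets and a median of 3677 UMIs, against 3.27% and 1038 in cluster 7. Its ACO1 level was 22.2 CPM in Control 1, 0 in Control 3 and 87.0, 55.6 and 75.3 CPM in ALP 1, 2 and 3. Control 2 had only 9 nuclei there. The part of doublets and depth was not tested. IREB2, which encodes iron regulatory protein 2, had no such peak. Its means in the 8 larger classes lay between 37.6 ± 8.08 CPM in InN-like and 59.9 ± 10.99 CPM in Oligo-like nuclei, and Oligo-like exceeded Micro-like nuclei in only 3 of 6 libraries. SLC11A2, which moves iron out of endosomes, ran in the same classes from 18.5 ± 4.52 CPM in Pyra-like to 33.0 ± 12.4 CPM in Micro-like nuclei. Micro-like exceeded OPC-like nuclei, the next class, in 4 of 6 libraries.

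The copy FTH1li4 was highest in Endo-like nuclei among the 8 larger classes, with 2642 ± 887 CPM (n = 6). Oligo-like nuclei had 569 ± 230 CPM, Astro-like 425 ± 122, Micro-like 385 ± 124, OPC-like 199 ± 54.9 and the neuronal classes from 126 ± 9.74 to 146 ± 51.5 CPM. FTLli2 was also highest there in Endo-like nuclei, at 1591 ± 634 CPM, but was followed among the 8 by Astro-like nuclei with 458 ± 101 CPM, before Oligo-like nuclei with 228 ± 38.2 CPM. Both copies were high in the clusters with the most RNA of ribosomal protein genes, summed over 78 genes, 39 of them at 0. Endo-like nuclei had 7658 CPM of ribosomal protein RNA, and the unnamed cluster 9, led by haemoglobin genes and TTR, had 7657 CPM, with 3270 CPM of FTH1li4. Within Astro-like nuclei, cluster 27 (114 nuclei, led by SERPINA3 and GFAP, a marker of reactive astrocytes) had 2921 CPM of ribosomal protein RNA and 1435 CPM of FTH1li4 and 2031 CPM of FTLli2, against 872, 359 and 376 CPM in cluster 0 with 3115 nuclei. The part of ribosomal protein RNA, or of the RNA of the cytoplasm in general, in these levels was not tested.

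Neighboring classes in the order of each gene were compared within libraries by a two-sided exact sign-flip permutation test, over 63 pairs of classes for the 7 genes and both copies. The leading class of TF, CP, TFRC, SLC40A1, ACO1, FTH1li4 and FTLli2 exceeded the next in all 6 libraries, each with exact p = 0.0312, the smallest that 6 libraries allow. That p was reached by 17 pairs, and it became 0.116 after Benjamini-Hochberg adjustment, so that none of the 63 passed. An edgeR test over 14015 features with the library as a block, added after seeing the data, found 20 of the 63 pairs to differ. The share of all features that differed between the same classes was not counted, so this number says nothing particular to iron genes. The pairs were also ordered by the same levels that were then tested. For the highest class against the next it gave log2 differences of 2.29 for TF, 2.28 for CP, 2.72 for TFRC, 2.20 for SLC40A1, 1.64 for ACO1, 1.70 for FTH1li4 and 1.19 for FTLli2. By the same edgeR test IREB2 was higher in Oligo-like than in Micro-like nuclei by 0.40 on the log2 scale (adjusted p = 0.0166), and SLC11A2 had a difference of 0.08 between Micro-like and OPC-like nuclei (adjusted p = 0.828). Within libraries, however, this difference of IREB2 was 0.11 in log2(CPM + 1), with Oligo-like nuclei higher in 3 of 6 libraries (exact sign-flip p = 0.656).

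Genes were then ranked by how like their pattern was to that of each iron gene, as Pearson's r of log2(CPM + 1) over 43 sums of a class and a library and 5190 genes. This is a description, since the sums of a library share its depth and free RNA. Among those most like TF were MOG (r = 0.966), a myelin gene, and PRR5L (r = 0.951). The most like CP were FAM102A (r = 0.954), PLEKHH1 (r = 0.953) and CTNNA3 (r = 0.953). TFRC was closest to PSMG4 (r = 0.884), WWTR1 (r = 0.853) and C9ORF16 (r = 0.852), and SLC40A1 to RASL11A (r = 0.803), ABCB4 (r = 0.7995) and LAMC1 (r = 0.771), all 6 highest in Endo-like nuclei. ACO1 was closest to TGFBR1 (r = 0.884), CBWD1 (r = 0.875) and STAG2 (r = 0.852), all highest in Micro-like nuclei. IREB2 was closest to PAXBP1 (r = 0.783), ZC3H8 (r = 0.738) and SF3B1 (r = 0.727), and SLC11A2 to BDP1 (r = 0.721), IRAK3 (r = 0.704) and MGMT (r = 0.704). FTH1li4 was closest to MAL (r = 0.931), TMED10 (r = 0.923) and SSR3 (r = 0.922), and FTLli2 to SMAP (r = 0.933), SYPL1 (r = 0.923) and RHOB (r = 0.923).

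ALP and control libraries were compared in each class to ask whether iron genes differ in the hippocampus of ALP TSs. TF was higher in the Oligo-like nuclei of ALP TSs. It was at 552, 384 and 405 CPM in Control 1, 2 and 3, and at 911, 844 and 1117 CPM in ALP 1, 2 and 3. The lowest ALP library was above the highest control library, as for 12.3% of the features tested in this class. Group means were 447 ± 91.2 CPM in control and 957 ± 142 CPM in ALP libraries (SD, n = 3 each), and the log2 fold change of ALP over control was 1.18 (SE 0.21, edgeR quasi-likelihood test, adjusted p = 0.0183). A feature was called where the adjusted p was under 0.05 and the log2 fold change beyond 0.25. In Oligo-like nuclei 6 of the 7 genes had enough counts to be tested and TF alone was called, beside 4.64% of all 11494 tested features and 1.91% called higher. The median log2 fold change of the 6 genes was 0.19, and that of all tested features 0.00. Thinned to 1000 UMIs, 40.2%, 30.4% and 31.8% of the Oligo-like nuclei of the control libraries had a TF UMI, against 53.0%, 53.2% and 62.6% in the ALP libraries. The groups did not overlap, and the exact permutation p of 0.1 is the smallest that 3 against 3 libraries allow. Thinning left out 11.8% of control and 22.0% of ALP nuclei, which had fewer UMIs.

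The call of TF in Oligo-like nuclei did not hold without Control 3, ALP 1 or ALP 3, where the log2 fold change was 1.09, 1.24 and 1.07 with adjusted p of 0.0896, 0.0894 and 0.128 (edgeR). Without Control 2, the library with few nuclei, it was 1.12 with adjusted p = 0.0238 (edgeR). Of all tested features, 16 of 11923 were called without Control 3, 3 of 12546 without ALP 1 and 3 of 12431 without ALP 3. Without Control 2, 1008 of 12350 features were called. MOG was higher as well in the Oligo-like nuclei of ALP libraries, with 681, 725 and 645 CPM in the control and 885, 920 and 949 CPM in the ALP libraries. The TF UMIs per 1000 MOG UMIs ran from 531 to 810 in control and from 918 to 1177 in ALP libraries, again without overlap. Summed CPM of the 6 oligodendrocyte markers, 1 of them at 0, overlapped, with 5981 to 8351 in control and 6052 to 7833 in ALP libraries. ST18, 1 of the 6, weighed heavily in this sum. With libraries summed, it held 33264 UMIs in control and 22240 in ALP Oligo-like nuclei, against 4171 and 5054 of MOG. The sum therefore does not show whether single markers differed between the groups. Ribosomal protein RNA of Oligo-like nuclei also overlapped, at 788 CPM on average in control and 829 in ALP libraries. Median UMIs per Oligo-like nucleus were lower in the ALP libraries without overlap, at 1169, 1325 and 1179 against 1420, 1480 and 1648 in control. Summed macrophage markers (1 of 4 at 0) were also lower there, at 6.73 to 11.2 CPM against 15.6 to 18.5, as were 5 ependymal markers, none at 0, at 7.34 to 13.97 CPM against 15.9 to 36.97. The part of depth and of these cells in the TF result was not tested.

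**Figure D3:**
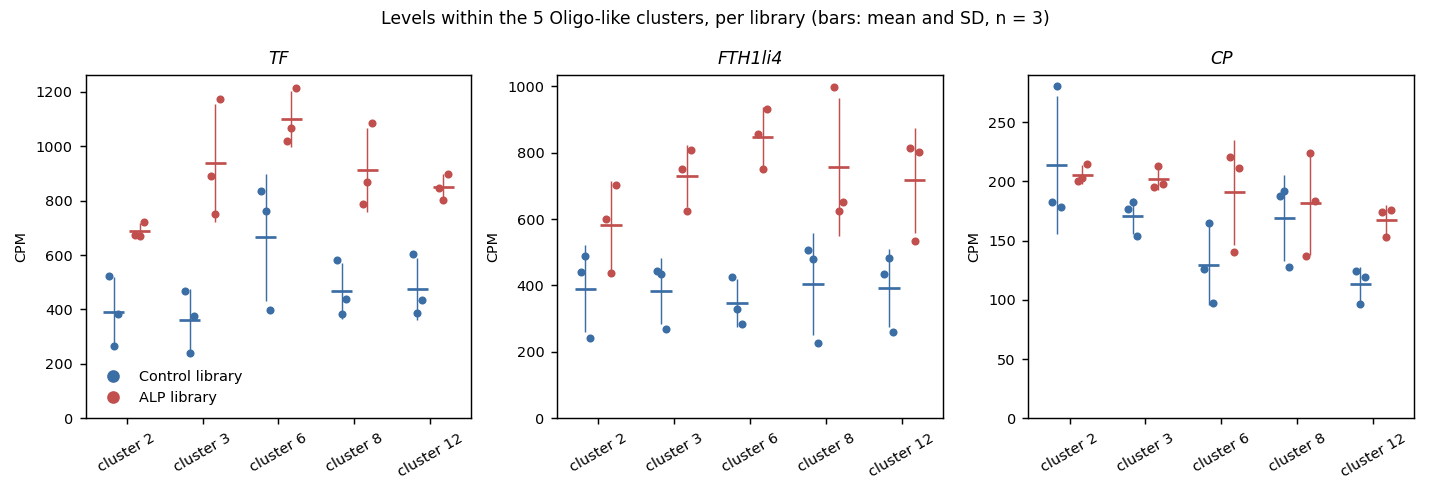
Levels of TF, FTH1li4 and CP in CPM (y axes, linear, from 0) in each of the 5 Oligo-like clusters (x axes). Points are libraries (blue control, red ALP) and bars give the mean and SD of 3 libraries. TF lies higher in ALP libraries in each of the clusters without overlap between the groups, FTH1li4 overlaps in cluster 2, and CP overlaps in clusters 2, 6 and 8.

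Oligo-like nuclei fell into 5 clusters whose makeup differed between the groups. Cluster 2 held 1793 control and 446 ALP nuclei, cluster 8 held 945 and 472 and cluster 12 held 416 and 411, whereas cluster 3 held 563 and 1469 and cluster 6 held 148 and 1474. The pooled level of TF was lowest in cluster 2, at 504 CPM, and highest in cluster 6, at 1058 CPM, where TF was among the 10 leading genes although it was kept out of the clustering. TF was therefore also compared within clusters, as an alternative chosen after seeing the data. The log2 fold change was 0.76 in cluster 2, 1.38 in cluster 3, 0.84 in cluster 6, 0.98 in cluster 8 and 0.81 in cluster 12, and it was called in clusters 3 (edgeR, adjusted p = 0.0113) and 8 (edgeR, adjusted p = 0.0329), where 1.37% and 1.44% of tested features were called, against 1.02%, 1.18% and 2.1% in clusters 2, 6 and 12. With each cluster given equal weight, TF was 472 ± 113 CPM in control and 898 ± 105 CPM in ALP libraries, a log2 ratio of 0.93 (exact permutation p = 0.1, the smallest possible).

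TF was also called in OPC-like nuclei, with 56.3, 32.5 and 56.6 CPM in the control and 122, 88.2 and 150 CPM in the ALP libraries. The groups did not overlap, as for 9.46% of features there that were higher in ALP, and the log2 fold change was 1.26 (SE 0.25, edgeR, adjusted p = 0.0422). Median UMIs per OPC-like nucleus were lower in ALP libraries without overlap too, at 1482, 1747 and 1532 against 2052, 1932 and 2201, and the part of depth was not tested. Of 5 genes tested there TF alone was called, beside 1.62% of 8780 features and 0.41% called higher. Without Control 3, ALP 1 or ALP 3 TF in OPC-like nuclei was not called, at log2 fold changes of 1.36, 1.27 and 1.08. Of all tested features there, 16 of 8712 were called without Control 3, 0 of 10130 without ALP 1 and 0 of 10166 without ALP 3. With another library left out, 67 to 416 features were called. The ratio to MOG in OPC-like nuclei overlapped, from 958 to 1857 TF UMIs per 1000 MOG UMIs in control and from 1605 to 2303 in ALP libraries, and the part of free oligodendrocyte RNA in this difference was not tested. TF had a positive log2 fold change in all 7 classes in which it could be tested, from 0.18 in Pyra-like nuclei up, though without Control 2 the value of TF in Pyra-like nuclei was -0.11. Without the normalization factors of the test, mean TF in Pyra-like nuclei was 39.3 CPM in control and 38.6 CPM in ALP libraries. TF had an unadjusted edgeR p under 0.05 in the Oligo-like, OPC-like, Astro-like and Gran-like nuclei, as 21.5%, 15.5%, 16.9% and 16.5% of features did, and only the Oligo-like and OPC-like nuclei passed. Over all kept nuclei together, where more cells of a class and more RNA per cell cannot be told apart, the log2 fold change was 1.07 (edgeR, adjusted p = 0.107).

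**Figure D4:**
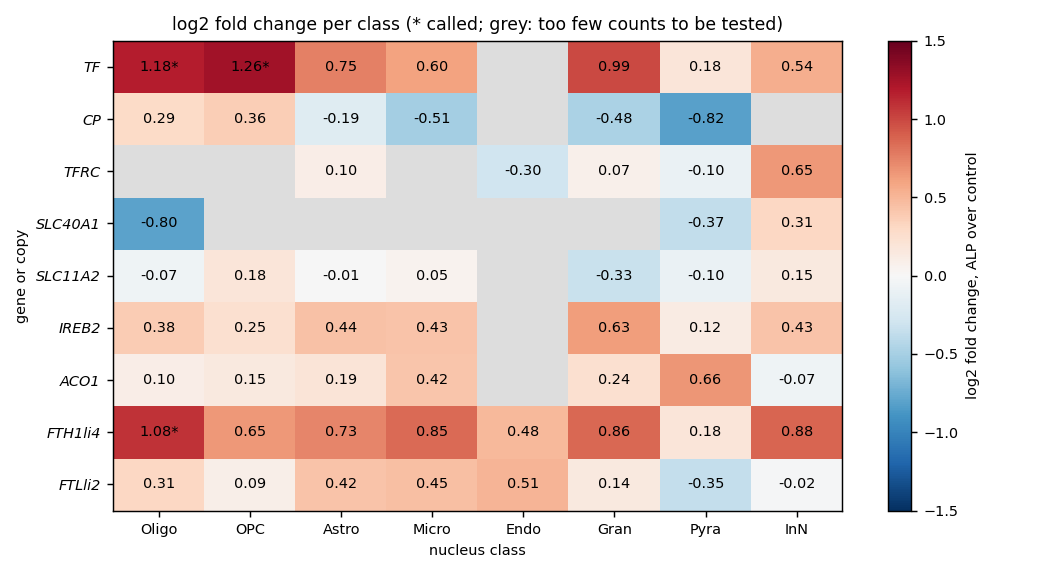
Log2 fold change of ALP over control (color and printed value) from edgeR for 9 genes or copies (rows) in 8 classes (columns). Asterisks mark called values and grey cells had too few counts to be tested, as TF in Endo-like nuclei. TF and FTH1li4 are positive in each class tested, with calls in Oligo-like nuclei and, for TF, in OPC-like nuclei. Without the normalization factors of the test, mean CPM of TF, IREB2 and FTH1li4 in Pyra-like nuclei is lower in ALP than in control libraries.

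The other 6 genes were not called in any class or over all nuclei. Called were 0.187% of tested features in Astro-like, 0.535% in Micro-like and 1.18% in Gran-like nuclei. In Endo-like, Pyra-like and InN-like nuclei and over all nuclei 0% were called by edgeR, while 5.91%, 17%, 19.7% and 23.4% of features, among them TF and IREB2 over all nuclei, had an unadjusted p under 0.05. DESeq2 called 1 of the genes, TF, over all nuclei. The share of all features that DESeq2 called there is not given here, so this call says nothing particular to TF. CP in Oligo-like nuclei was at 175, 196 and 149 CPM in the control and 198, 188 and 201 CPM in the ALP libraries. These overlapped, and the log2 fold change was 0.29 (SE 0.18, edgeR, adjusted p = 0.392). IREB2 had positive log2 fold changes in 7 of 7 classes tested, from 0.12 in Pyra-like to 0.63 in Gran-like nuclei, and IREB2 in Pyra-like nuclei was below 0 without Control 1 (-0.03) or ALP 2 (-0.01). Without the normalization factors of the test, mean IREB2 in Pyra-like nuclei was 40.7 CPM in control and 37.2 CPM in ALP libraries. In Gran-like nuclei IREB2 was at 34.1, 30.8 and 36.8 CPM in the control and 45.2, 58.9 and 49.2 CPM in the ALP libraries. The groups were apart, as were those of 10.3% of features tested there that were higher in ALP, and the adjusted p was 0.181 (edgeR). Median UMIs per Gran-like nucleus were lower in ALP libraries without overlap, and the part of depth was not tested.

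ACO1 in Micro-like nuclei was at 131, 104 and 103 CPM in the control and 176, 139 and 137 CPM in the ALP libraries. The groups did not overlap, as for 8.89% of tested features that were higher in ALP, and the log2 fold change of 0.42 (SE 0.23) did not pass (edgeR, adjusted p = 0.428). Median UMIs per Micro-like nucleus were lower in ALP libraries without overlap, and the part of depth was not tested. Thinned to 1000 UMIs, 9.51% ± 2.63 of control and 14.9% ± 1.03 of ALP Micro-like nuclei had an ACO1 UMI (exact permutation p = 0.1, the smallest possible), with 30.3% and 52.3% of nuclei left out as too shallow. TFRC in Endo-like nuclei was at 240, 276 and 245 CPM in the control and 205, 163 and 266 CPM in the ALP libraries. These overlapped, with a log2 fold change of -0.30 (SE 0.35, edgeR, adjusted p = 0.974) and 27 Endo-like nuclei in ALP 1. In InN-like nuclei TFRC had a log2 fold change of 0.65 (SE 0.35, edgeR, adjusted p = 0.332). SLC40A1 could be tested in 3 classes, with log2 fold changes of 0.31 in InN-like, -0.80 in Oligo-like and -0.37 in Pyra-like nuclei. SLC11A2 lay between -0.33 and 0.18 in 7 classes, and the smallest adjusted p was 0.790 (edgeR).

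Of the ferritin copies, FTH1li4 was called in Oligo-like nuclei. It was at 459, 444 and 247 CPM in the control and 812, 618 and 834 CPM in the ALP libraries. The groups did not overlap, and the log2 fold change was 1.08 (SE 0.26, edgeR, adjusted p = 0.0406). Without Control 3, ALP 1 or ALP 3 the call of FTH1li4 in Oligo-like nuclei was lost, at log2 fold changes of 0.81, 1.04 and 1.02, as it was with upper-quartile normalization (1.02, adjusted p = 0.0508, edgeR). Within clusters FTH1li4 was called in clusters 3, 6 and 12, with log2 fold changes of 1.02, 1.36 and 1.01. In these clusters 1.37%, 1.18% and 2.1% of tested features were called. The control libraries were small in cluster 6, with 44, 28 and 76 nuclei and 27, 16 and 38 FTH1li4 UMIs. In cluster 12, Control 2 had 17 nuclei and 15 FTH1li4 UMIs. Without the normalization factors of the test, mean FTH1li4 in Pyra-like nuclei was 128 CPM in control and 124 CPM in ALP libraries. With these factors FTH1li4 was positive in 8 of 8 classes and had an unadjusted edgeR p under 0.05 in 6, Micro-like nuclei with 14% of features among them. Its groups were also apart in 6 classes, the Oligo-like, OPC-like, Astro-like, Micro-like, Gran-like and InN-like nuclei, where 12.3%, 9.46%, 10.8%, 8.89%, 10.3% and 11.3% of features were all higher in ALP, with adjusted p of 0.0538 in Gran-like and 0.0713 in InN-like nuclei (edgeR). Ribosomal protein RNA was higher in the Gran-like nuclei of ALP libraries too, without overlap, at 627 against 768 CPM on average. Median UMIs per nucleus were lower in ALP libraries without overlap in Oligo-like, OPC-like, Astro-like, Micro-like and Gran-like nuclei. They were 1552, 1744 and 1678 against 1998, 2261 and 2092 in Astro-like nuclei. Micro-like nuclei had 872, 1028 and 953 against 1115, 1631 and 1338. Gran-like nuclei had 2488, 2684 and 2513 against 3312, 4069 and 3320. In InN-like nuclei they overlapped, and the part of depth was not tested. The log2 fold change of FTH1li4 was 0.18 in Pyra-like nuclei, and the difference from its change in Oligo-like nuclei was -0.94 in a joint edgeR fit (SE 0.24, adjusted p = 0.0459), a test that 0.453% of features passed. It did not pass without Control 3 (-0.62), ALP 1 (-0.84), ALP 2 (-1.05) or ALP 3 (-0.90). The makeup of Pyra-like nuclei differed between the groups as well. Cluster 10 held 262 control and 814 ALP nuclei, cluster 18 held 123 and 375 and cluster 23 held 58 and 183. Cluster 13 held 290 and 353, and cluster 20 held 212 and 182. Pooled FTH1li4 was 112 CPM in cluster 10, 118 in cluster 18, 139 in cluster 23, 159 in cluster 13 and 131 in cluster 20. Median UMIs per Pyra-like nucleus were higher in ALP libraries without overlap, at 5055, 3972 and 5464 against 3573, 3732 and 3372. In Oligo-like nuclei they were lower in ALP libraries. The part of this makeup and of depth was not tested. FTLli2 was called in no class, with log2 fold changes from -0.35 to 0.51.

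The antisense feature FTH1-AS-5 was called in Oligo-like nuclei on few counts, where Control 1, 2 and 3 held 5, 0 and 4 UMIs and ALP 1, 2 and 3 held 19, 10 and 46. The log2 fold change was 3.29 (SE 0.66, edgeR, adjusted p = 0.0225), and FTH1-AS-5 in Oligo-like nuclei was not called without Control 1, Control 3, ALP 1 or ALP 3, at 3.28, 3.41, 3.36 and 2.69. Since the use of strand in the counting is not stated, reads of a gene and of its antisense partner cannot be told apart. SLC40A1-AS-2, with 411 UMIs, was called in no class.

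The wider iron pathway was described with 79 genes in 6 lists. In Oligo-like nuclei 43 of them could be tested and 1 was called, beside 4.64% of all features, and in OPC-like nuclei 1 of 35, beside 1.62%. In the other 6 classes and over all nuclei, 0 of 9 to 56 tested genes were called, while between 1 and 9 had an unadjusted edgeR p under 0.05, from 1 of 9 in Endo-like nuclei, beside 5.91% of all features, to 9 of 46 in InN-like nuclei, beside 19.7%. Both called genes belong to the ferroptosis list, ferroptosis being cell death by iron-driven oxidation of lipids. GPX4, the peroxidase that repairs oxidized lipids, was at 80.4, 113 and 95.4 CPM (with the normalization factors of the test) in the control and 180, 154 and 166 CPM in the ALP libraries of Oligo-like nuclei. All 3 ALP values were above all 3 control values, as for 12.3% of features there, with a log2 fold change of 0.84 (SE 0.19, edgeR, adjusted p = 0.0301). GPX4 in Oligo-like nuclei was not called without Control 1, Control 3, ALP 1 or ALP 3, at log2 fold changes of 0.73, 0.85, 0.81 and 0.86. MAP1LC3A, a protein of the autophagosome membrane, was at 67.6, 89.3 and 74.1 CPM on the same scale in the control and 173, 130 and 137 CPM in the ALP libraries of OPC-like nuclei. These did not overlap, as for 9.46% of features there, and the log2 fold change was 0.96 (SE 0.19, edgeR, adjusted p = 0.0422). The call of MAP1LC3A in OPC-like nuclei held without Control 2 and not without Control 1, Control 3, ALP 1, ALP 2 or ALP 3, at 0.88, 0.95, 0.84, 1.04 and 1.01.

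The median log2 fold change of the 12 ferroptosis genes tested in Oligo-like nuclei was 0.31, beside 0.00 over all tested features. This was not particular to the list or the class. In Oligo-like nuclei the median was 0.30 for the list of mitochondrial iron and iron-sulfur clusters. It was 0.14 there for the storage list, 0.04 for the haem list and -0.38 for the import list. The ferroptosis median in the other larger classes ran from 0.05 in Pyra-like to 0.37 in OPC-like nuclei. By the rule for named genes, 3 genes of this list are given from InN-like nuclei, none of them called. ALOX15, a lipid-oxidizing enzyme, had a log2 fold change of -1.60 (SE 0.32, edgeR, adjusted p = 0.0509). SAT1, which acetylates polyamines, had one of 0.94 (SE 0.20, edgeR, adjusted p = 0.0533), and SLC3A2, a subunit of the cystine importer, one of 1.07 (SE 0.29, edgeR, adjusted p = 0.0855). The other 5 lists held no called gene.

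The remaining genes were not called and are given by their log2 fold change. In the import list, LRP1, a receptor that binds haem carried by hemopexin, stood at 0.40 in OPC-like nuclei. In the storage list, NCOA4, which delivers ferritin to lysosomes, stood at 0.87 in Micro-like nuclei, PCBP1, an iron chaperone, at 0.73 in Oligo-like nuclei and NFE2L2, a regulator of the oxidative stress response, at -0.56 in Pyra-like nuclei. HEPH, a ferroxidase related to CP, stood at 0.81 in Astro-like nuclei. In the list of mitochondrial iron and iron-sulfur clusters, ISCU, the scaffold on which clusters are built, and CISD2 stood at 0.80 and 0.75 in InN-like nuclei, and SLC25A28, a mitochondrial iron importer, at 0.48 in Astro-like nuclei. In the haem list, UROD stood at 0.96 in Oligo-like nuclei (edgeR, adjusted p = 0.0633), ALAS1, the first enzyme of haem synthesis, at 0.83 in InN-like nuclei and CPOX at -0.76 in Gran-like nuclei.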

How the data were processed

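Single-nucleus RNA-seq of 6 hippocampi used the 10x 3′ kit. The authors deposited raw UMI counts per feature and barcode, made with Cell Ranger (3.1.0 in the submitters' processing notes, 6.1.2 in the matrix headers) on a TreeshrewDB reference. Its build and the use of strand are not given in the sources used here. Cell Ranger sums UMIs per feature, so sequences shared by copies can lose reads.

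Kept nuclei had 200 to 2500 genes, a limit that removes deep nuclei, and no more than 5% of UMIs from mitochondria. Leiden clusters (scanpy 1.11.5, leidenalg 0.10.2; 2000 variable genes without the iron genes, 30 components, 20 neighbors, resolution 2) were named from at least 3 markers. Doublets were marked and kept. Depth ran from 4159545 to 15412799 kept UMIs per library. Counts were summed per class and library over at least 10 nuclei and tested with edgeR 4.0.16 (R 4.3.3; quasi-likelihood, TMM, filterByExpr with a minimum count of 10, Benjamini-Hochberg over all features of a class), after a check on simulated counts. DESeq2 1.42.0, other filters, clusterings and normalizations, the replicate block and leaving out each library were alternatives. P-values measure the spread between single libraries, 1 per animal. Intervals and floors cover counting error only.

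The genes and lists were chosen with earlier results of these data known. Of the lists, the text names called genes and up to 3 more per list with the largest absolute log2 fold change at an unadjusted p under 0.05, and for each gene the 3 most alike, of which 1 is not reported here. The ratio of TF to MOG was chosen after seeing the data. Clusters and copies outside this rule were named after their values were seen. Sequences of the genes were not used here.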

Additional observations from a re-analysis of the deposited data

Results flagged for a closer look

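The difference of FTH1li4 between ALP and control libraries was not alike in Pyra-like and Oligo-like nuclei by a test of the interaction of class and group. The log2 fold change was 0.18 in Pyra-like and 1.08 in Oligo-like nuclei, and in the joint edgeR fit over 16346 features the difference between them was -0.94 (SE 0.24, adjusted p = 0.0459), with 0.453% of features passing. For FTH1li4, ALP difference Pyra-like minus Oligo-like did not pass without Control 3 (-0.62), ALP 1 (-0.84), ALP 2 (-1.05) or ALP 3 (-0.90). Pyra-like nuclei had 262 control and 814 ALP nuclei in cluster 10 and 290 and 353 in cluster 13, with pooled FTH1li4 levels of 112 and 159 CPM. Clusters 18, 20 and 23 held 123 and 375, 212 and 182, and 58 and 183, with pooled levels of 118, 131 and 139 CPM. Median UMIs per nucleus differed in opposite directions, each without overlap between the groups. In Pyra-like nuclei they were 5055, 3972 and 5464 in ALP against 3573, 3732 and 3372 in control libraries. In Oligo-like nuclei they were 1169, 1325 and 1179 against 1420, 1480 and 1648. The part of this makeup and of depth in the difference was not tested. None of the other differences of the iron genes or copies from Oligo-like nuclei passed in that fit, and the nearest was that of FTH1li4 in Endo-like nuclei, at -0.96 (edgeR, adjusted p = 0.0510).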

How the results depend on the processing

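TF kept its direction in Oligo-like and OPC-like nuclei under every alternative run. Adjusted p passed in both with DESeq2, without the filter on low counts, with upper-quartile normalization, no upper limit on genes per nucleus, marked doublets removed, iron genes kept in the clustering, a clustering resolution of 1 and LINC-FRMD8-1 left out, the last added after seeing the data. With 1 library left out at a time, the log2 fold change of TF in Oligo-like nuclei ran from 1.07 to 1.38, of TF in OPC-like nuclei from 1.08 to 1.47 and of FTH1li4 in Oligo-like nuclei from 0.81 to 1.28, and between 0 and 1 of the 9 genes was called in either class. FTH1li4 in Oligo-like nuclei also missed the threshold with upper-quartile normalization (1.02). With the replicate number as a block, members called in Oligo-like and in OPC-like nuclei went from 1 to 0, with 1.19 for TF in Oligo-like, 1.35 for TF in OPC-like and 1.12 for FTH1li4 in Oligo-like nuclei, and features called went from 533 to 118 in Oligo-like and from 142 to 1 in OPC-like nuclei. Same-numbered libraries of both groups had correlations of their deviations between -0.0972 and -0.0565, and 0 of 6 libraries correlated best with its own number. With 3 libraries per group, these correlations cannot show whether same-numbered libraries were prepared together. Features called in Oligo-like nuclei were 436 with DESeq2, 1272 without the filter, where more features were tested, and 3 to 1008 with a library left out, and in OPC-like nuclei 545 and 0 to 416. In Gran-like nuclei 1 gene was called, in place of 0, without the filter, with iron genes kept in the clustering and at resolution 1, as was 1 over all nuclei with DESeq2 and without the filter. The share of all features called under these settings is not given here, so these calls say nothing particular to iron genes.

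The difference of the leading from the next class passed with edgeR and the library as a block, at 2.29 for TF, 2.28 for CP, 2.72 for TFRC, 2.20 for SLC40A1, 1.64 for ACO1, 0.40 for IREB2, 1.70 for FTH1li4 and 1.19 for FTLli2, where the exact test over 63 pairs did not after adjustment. For IREB2, Oligo-like minus Micro-like was 0.11 and became -0.11 with no upper limit on genes, and ran from -0.015 to 0.21 with a library left out. For FTH1li4, ALP difference Pyra-like minus Oligo-like was -0.68 without the filter and ran from -1.08 to -0.62 with a library left out.

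Of 1192 alternative values of single genes 56 had the other sign, all of differences that were not called, and the cause was not tested. Without an upper limit on genes the log2 fold change was 0.017 for TFRC in Pyra-like (main value -0.10), 0.026 for SLC11A2 in Astro-like (-0.01), 0.067 for SLC11A2 in Pyra-like (-0.10), 0.21 for CP in Astro-like (-0.19), -0.12 for ACO1 in Gran-like (0.24), 0.29 for ACO1 in InN-like (-0.07), 0.44 for FTLli2 in Pyra-like (-0.35), 0.77 for FTLli2 in InN-like (-0.02) and 0.30 for FTLli2 in all nuclei (-0.002). Without the filter it was 0.027, 0.010, 0.040, 0.0063, 0.051 and 0.032 for TFRC in Pyra-like, SLC11A2 in Astro-like, SLC11A2 in Pyra-like, ACO1 in InN-like, FTLli2 in InN-like and FTLli2 in all nuclei. TFRC in Gran-like (0.07) was -0.013 with DESeq2, -0.086 with the replicate block and -0.048 at resolution 1, and CP in Gran-like (-0.48) was 0.18 at resolution 1 and 0.14 with iron genes kept. The block gave 0.0046 for SLC11A2 in Astro-like and 0.017 for FTLli2 in all nuclei, removal of doublets -0.014 for SLC11A2 in Micro-like (0.05) and 0.045 for FTLli2 in InN-like, and upper-quartile normalization -0.056 for SLC11A2 in all nuclei (0.02). With a library left out the values ran from -0.11 to 0.56 for TF in Pyra-like, from -0.039 to 0.26 for TFRC in Astro-like, from -0.18 to 0.30 for TFRC in Gran-like, from -0.19 to 0.11 for TFRC in Pyra-like, from -0.29 to 0.083 for SLC11A2 in Oligo-like, from -0.11 to 0.17 for SLC11A2 in Astro-like, from -0.33 to 0.30 for SLC11A2 in Micro-like, from -0.29 to 0.048 for SLC11A2 in Pyra-like and from -0.035 to 0.077 for SLC11A2 in all nuclei. They ran from -0.47 to 0.078 for CP in Astro-like, from -1.01 to 0.020 for CP in Micro-like, from -0.035 to 0.31 for IREB2 in Pyra-like, from -0.034 to 0.41 for ACO1 in Gran-like, from -0.18 to 0.066 for ACO1 in InN-like, from -0.049 to 0.27 for FTLli2 in OPC-like, from -0.21 to 0.14 for FTLli2 in InN-like and from -0.12 to 0.22 for FTLli2 in all nuclei. In simulated counts the test recovered 37% of 2-fold and 87% of 4-fold changes among 11494 features in Oligo-like nuclei, 22% and 82% among 1522 in Endo-like nuclei, and 16% and 76% among 13369 in Pyra-like nuclei, the lowest of the 8 classes.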

Other observations

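Of the clusters that got no name, 4 had more TF than any of the others. Cluster 9, with 1155 nuclei and led by the haemoglobin genes HBG and HBQ1 and by TTR, had 410 CPM of TF, 3270 CPM of FTH1li4 and 1480 CPM of FTLli2. Cluster 30, with 65 nuclei and with both VIP, an interneuron gene, and ASPA, an oligodendrocyte gene, among its leading genes, had 701 CPM of TF and 278 CPM of CP. Cluster 26, with 137 nuclei and led by C1QB, C1QA and CD74, microglial genes, had 672 CPM of TF, 208 CPM of CP and 101 CPM of IREB2. Cluster 21, with 348 nuclei and led by DNAH8, TMEM232 and DNAH6, had 606 CPM of TF and 197 CPM of CP. In clusters 21, 26 and 30 the best-matching marker list was that of oligodendrocytes. They got no name because markers of another class led among their 10 leading genes. Cluster 9 got none because of its low depth, with a median of 856 UMIs per nucleus. PVALB, CFL1 and OLFM1 were also among its 10 leading genes.

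Other features named after iron genes were not called. FTL-AS-1, antisense to FTL by its name, had log2 fold changes below 0 in 5 of 6 classes, with -0.96 in Astro-like nuclei (edgeR, adjusted p = 0.192). Over all nuclei the copy FTH1li1 was at a log2 fold change of -1.63 (edgeR, adjusted p = 0.0896) and SLC40A1-AS-2 at 0.90 (edgeR, adjusted p = 0.117).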
